A study of Mus musculus with 24 samples.

Results

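Spinocerebellar ataxias (SCAs) are inherited disorders in which the cerebellum degenerates, and most are caused by mutations in genes other than Atxn1, the SCA1 gene. Transcript levels of 9 such genes were followed in the cerebellum of SCA1 knock-in mice: Atxn2 (SCA2), Atxn3 (SCA3), Atxn7 (SCA7), Tbp (SCA17), Atxn10 (SCA10), Ppp2r2b (SCA12), Ttbk2 (SCA11), Fgf14 (SCA27) and Afg3l2 (SCA28). The genes were chosen from a list of disease genes, and each was found by symbol among the 54232 genes listed for each library. All 9 passed the filter on low counts, as did 22502 genes in all.

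RNA was sequenced from the cerebellum of 24 mice aged 6 weeks, on a C57BL/6J background. WT mice carried 2 unexpanded alleles (Atxn1 2Q/2Q). SCA1 mice carried 1 knock-in allele with an expanded CAG repeat and 1 unexpanded allele (Atxn1 154Q/2Q). In SCA1 S776A mice serine S776 of the expanded allele was replaced by alanine (Atxn1 154Q[S776A]/2Q), and in S776A double mutants it was replaced on both alleles (Atxn1 154Q[S776A]/2Q[S776A]). WT S776A homozygous mice carried the replacement on both unexpanded alleles (Atxn1 2Q[S776A]/2Q[S776A]). The alleles are constitutive, so every cell type carries them. Each S776A allele was made with CRISPR/Cas9 and kept as 2 founder lines, and which line gave which RNA is not stated in the sources used here.

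There were 8 WT mice and 4 of each other genotype, and each library held between 62163600 and 88430180 fragments assigned to genes. By the shares of fragments that were not assigned to a gene, the libraries fell into 2 sets, which are called batches here although the labels name none. Batch 1 held all 12 mice with an expanded allele and 4 of the WT mice, with 9.52% to 12.01% of fragments outside genes. Batch 2 held 4 WT and 4 WT S776A homozygous mice, with 5.23% to 6.31%. Each mutant genotype was therefore compared with the WT mice of its own batch. Markers of cerebellar neurons were present, with 7 of 7 Purkinje cell and 7 of 7 granule cell markers above a mean of 1 CPM (counts scaled to the size of the library) in every group. Atxn1 itself was at 50.8 ± 2.22 CPM (SD, n = 4) in WT and 58.8 ± 3.65 CPM (SD, n = 4) in SCA1 mice of batch 1, which does not check the labels because both alleles are counted together.

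The 9 genes cause ataxia in different ways. In human SCA2, SCA3, SCA7 and SCA17, as in SCA1, a run of CAG codons lengthens and the protein gains a long glutamine tract. SCA10 comes from a repeat in an intron of ATXN10 and SCA12 from a repeat at the start of PPP2R2B, whereas TTBK2 and AFG3L2 are mostly altered by small mutations and FGF14 by small mutations or by a repeat in an intron. Their products work in separate processes, which are RNA translation and decay (ATXN2), removal of ubiquitin (ATXN3), chromatin modification in the SAGA complex (ATXN7), transcription initiation (TBP), neuronal survival (ATXN10), protein dephosphorylation (PPP2R2B), phosphorylation of microtubule proteins and growth of cilia (TTBK2), sodium channel function (FGF14) and quality control in mitochondria (AFG3L2).

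The mouse orthologs of the glutamine-tract genes do not carry long tracts, and the longest run of CAG or CAA codons over the annotated coding transcripts of each is shown because such runs lengthen in the human diseases. The sequences are from GENCODE M21 transcripts on GRCm38, and capitals mark the codons of the run. On each side 5 flanking codons are given, 5′ to 3′, and some of these also encode glutamine.
Atxn2, chr5:121810931-121810969, + strand, exon 22 of 25, 3 codons: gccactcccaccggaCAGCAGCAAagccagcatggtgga
Atxn3, chr12:101926548-101932981, - strand, across the junction of exons 9 and 10 of 11, 6 codons: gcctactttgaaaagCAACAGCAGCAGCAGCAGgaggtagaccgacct
Atxn7, chr14:14013141-14013185, + strand, exon 2 of 13, 5 codons: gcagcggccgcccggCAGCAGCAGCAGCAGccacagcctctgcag
Tbp, chr17:15504376-15504444, + strand, exon 3 of 8, 13 codons: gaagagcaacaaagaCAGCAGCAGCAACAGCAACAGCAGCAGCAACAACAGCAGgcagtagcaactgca
The Tbp run was the longest, with 9 CAG and 4 CAA codons and no more than 3 CAG codons in a row. In Atxn3 and Atxn7 5 CAG codons stood in a row. In Atxn2 the longest run lay at codons 1129 to 1131 of 1286, near the end of the coding sequence and not near its start, where the human tract lies.

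All 9 genes were expressed in the WT cerebellum, over a wide range. Per length of their exons, in RPKM (CPM per kilobase), Atxn10 had the highest level at 105 ± 17.7 RPKM (SD, n = 8), which placed it at percentile 98.7 of the 22486 tested genes with a length. Fgf14, which encodes an intracellular partner of sodium channels, followed at 16.5 ± 1.51 RPKM. The kinase gene Ttbk2 and the phosphatase subunit gene Ppp2r2b lay together at 12.0 ± 0.738 and 11.9 ± 1.29 RPKM. Afg3l2, encoding a protease subunit of the inner mitochondrial membrane, was at 8.96 ± 0.336 RPKM. By this length the 4 glutamine-tract genes were the lowest, with Atxn2 at 5.83 ± 0.307, Atxn7 at 4.97 ± 0.633, Atxn3 at 4.56 ± 0.166 and Tbp at 3.42 ± 0.151 RPKM, and Tbp stood at percentile 58.0.

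Of the 8 steps between neighbours in this order, 6 had the same direction in every WT mouse. In each of these the gene ranked higher was higher in 8 of 8 WT mice (exact two-sided sign-flip permutation test, p = 0.00781, the smallest that 8 mice allow, adjusted p = 0.0104 over 8 steps). The test reads the log2 difference within each mouse, and the ranges over mice of Atxn2 (5.4 to 6.37 RPKM) and Atxn7 (4.28 to 5.86 RPKM) overlapped. Ttbk2 was above Ppp2r2b in 3 of 8 mice (exact permutation p = 0.594), and Atxn7 was above Atxn3 in 4 of 8 (exact permutation p = 0.125), so these pairs were not told apart. Both pairs swapped places between the 2 batches of WT mice. With the length of the longest transcript in place of all exons, 5 of the 9 genes changed rank, Ppp2r2b came second and Ttbk2 fell below Atxn2. The place of Tbp depends on how fragments were counted, since 2582 of its exon bases overlap Pdcd2 on the opposite strand and the 2 strand columns together held 1.5563 times the counts used here, fragments of Pdcd2 in the overlap included. With the sum of the strand columns, an alternative chosen after seeing the data, Tbp was at 5.32 ± 0.135 RPKM (SD, n = 8), above Atxn7 in 4 of 8 mice, and Atxn3 was the lowest. For Fgf14 the factor was 1.335, and it has an antisense neighbour that shares 220 exon bases with it. Ttbk2 shares 3409 exon bases with Cdan1 on the same strand, so fragments there cannot be assigned to either gene.

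**Figure D1:**
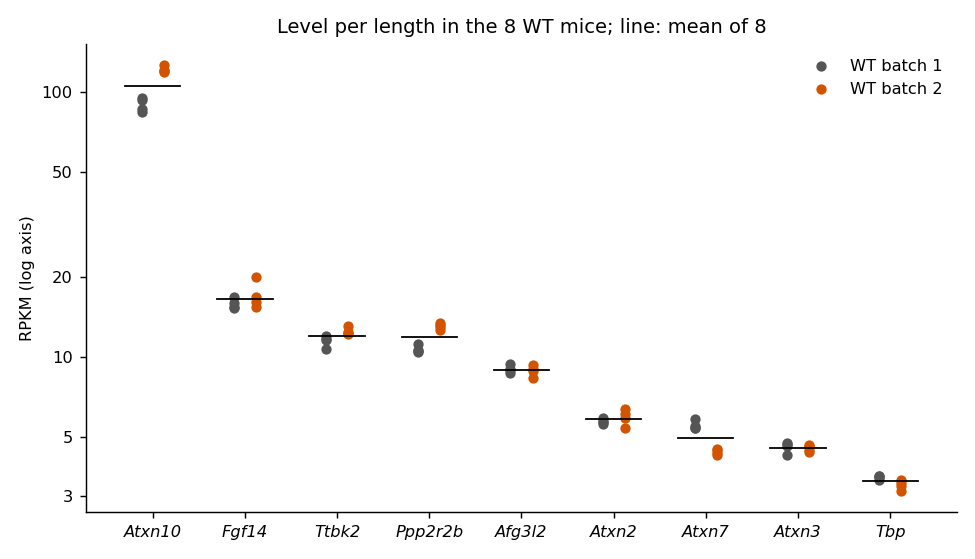
Level per exon length (RPKM, log axis) of the 9 genes in each of the 8 WT mice, coloured by batch, with the mean of 8 as a line. Atxn10, at 105 RPKM, stands far above Fgf14 at 16.5 RPKM, and its batch 2 mice lie above its batch 1 mice.

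The first comparison asked whether the expanded Atxn1 allele changed the transcripts of the other SCA genes. None of the 9 passed the test in SCA1 against WT mice. A call needed both an adjusted p below 0.01 (edgeR quasi-likelihood test, Benjamini-Hochberg over all genes) and a log2 fold change beyond 0.5 in either direction, and 39 of the 22502 genes, or 0.173%, met it. The nearest to a change was Ppp2r2b, at a 95% interval that excluded 0. The 95% intervals of all 9 log2 fold changes lay between -0.35 and 0.349, inside the fold minimum of 0.5 in both directions. At an unadjusted p under 0.05, 1 of the 9 genes (Ppp2r2b) and 8.25% of all genes differed. DESeq2 with the batch as a covariate and DESeq2 after ComBat-seq also called 0 of the 9 genes in every genotype comparison. The median absolute log2 fold change was 0.0582 for the 9 genes and 0.1047 for all genes tested, which were not matched on expression level.

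Ppp2r2b encodes a regulatory B subunit that directs the phosphatase PP2A to its substrates in neurons. Its level in the 4 WT mice of batch 1 was 44.5, 41.5, 42.2 and 42.4 CPM, and in the 4 SCA1 mice it was 50.6, 51.9, 51.2 and 45.3 CPM. Every SCA1 mouse lay above every WT mouse, although the lowest SCA1 mouse was within 1 CPM of the highest WT mouse. The log2 fold change was 0.22 ± 0.062 (SE, 95% interval 0.095 to 0.349), a fold of 1.068 to 1.274, with an unadjusted p of 0.00136 and an adjusted p of 0.143 by edgeR. The exact permutation p (two-sided, 4 against 4 mice) was 0.0286, the smallest it allows. The exact test was run only where the unadjusted edgeR p was under 0.05, and its p was not corrected for the 9 genes. Ppp2r2b was the 1 of 9 genes whose SCA1 and WT mice did not overlap, against 8.76% of all genes tested.

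In SCA1 S776A mice Ppp2r2b was at 49.9, 43.6, 42.2 and 47.6 CPM, and in S776A double mice at 46.5, 48.8, 48.6 and 41.4 CPM. Both groups overlapped WT, and their means of 45.8 ± 3.54 and 46.3 ± 3.43 CPM (SD, n = 4 each) lay between WT at 42.6 ± 1.31 and SCA1 at 49.7 ± 3.04 CPM. The log2 difference from SCA1 was -0.12 (95% interval -0.245 to 0.008, edgeR unadjusted p = 0.0659, adjusted p = 1) in SCA1 S776A and -0.10 (-0.23 to 0.024, unadjusted p = 0.107) in double mice, so a difference between these genotypes was not detected. Over the 12 mice with an expanded allele, 9 lay above every WT mouse and the log2 fold change was 0.15 ± 0.051 (SE, adjusted p = 0.385 by edgeR, exact permutation p = 0.0286). These comparisons share the same 4 WT mice.

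For Ppp2r2b the p-value depended on the tool and the size did not. The 2 DESeq2 fits put SCA1 at 0.22 above WT on the log2 scale with adjusted p-values of 0.0417 (batch as a covariate) and 0.0032 (after ComBat-seq), still below the fold minimum. Without the batch term it was 0.07, since WT mice of batch 2 were then among the controls. In SCA1 mice the summed level of 7 choroid plexus markers ran from 1452 to 7378 CPM against 171 to 2882 CPM in WT, and that of 7 Purkinje cell markers from 5180 to 5815 against 6864 to 7906 CPM, and their part in the Ppp2r2b value was not tested. In bulk tissue, fewer cells of a type and less RNA per cell cannot be told apart.

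**Figure D2:**
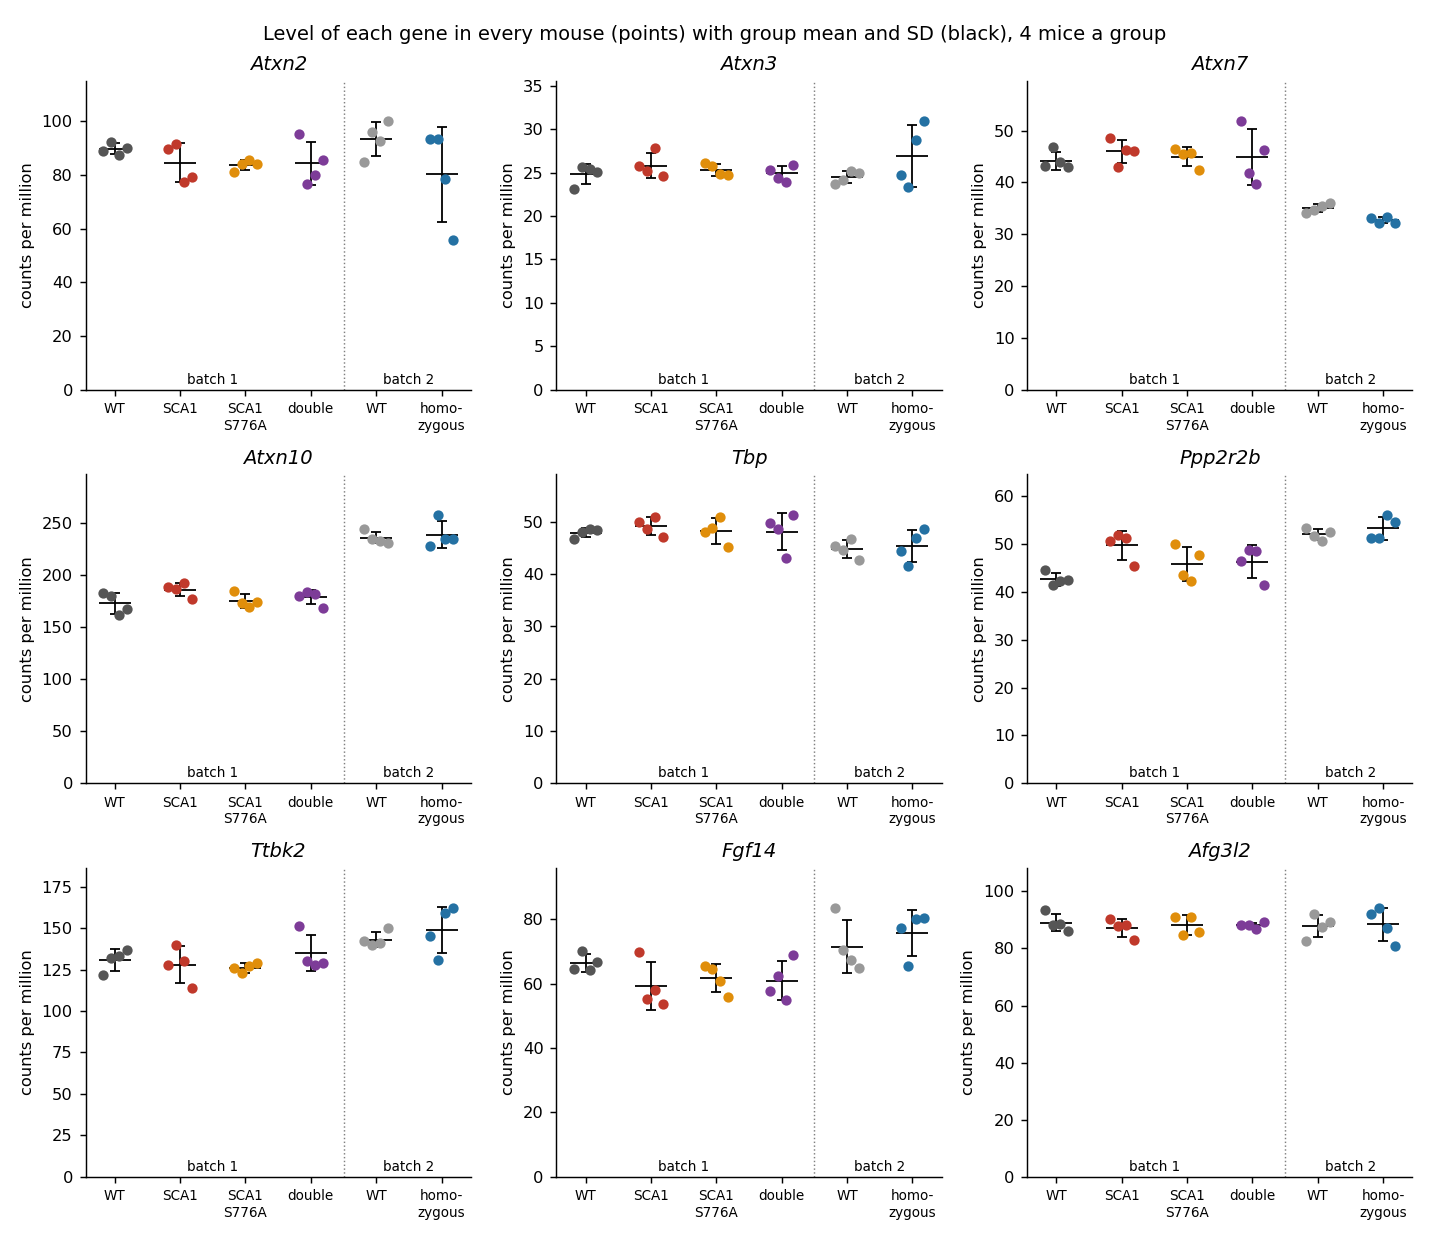
Level in CPM of each of the 9 genes in every mouse (points), with the group mean and SD in black and 4 mice in each group, batch 1 left and batch 2 right of the dotted line. Ppp2r2b is higher in all 4 SCA1 mice than in the 4 WT mice of batch 1, and Atxn10, Ppp2r2b and Atxn7 differ between the WT mice of the 2 batches.

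Among the glutamine-tract genes, none differed between SCA1 and WT mice at an unadjusted p under 0.05. Atxn2, whose product binds RNA and regulates translation, was at 89.0, 92.2, 87.5 and 89.9 CPM in WT and at 89.7, 91.6, 77.3 and 79.2 CPM in SCA1 mice. A pair of SCA1 mice lay within the WT range and the other pair below it, and the log2 fold change was -0.09 ± 0.106 (SE, edgeR adjusted p = 0.877). In SCA1 S776A mice Atxn2 was at 81.0, 83.9, 85.6 and 83.9 CPM, and all 4 lay below every WT mouse, the 1 of 9 genes that did not overlap in that genotype against 4.39% of all genes. Its log2 fold change there was -0.10 ± 0.106 (SE, edgeR adjusted p = 1).

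Atxn3, a deubiquitinase gene, was at 24.8 ± 1.17 CPM in WT and 25.8 ± 1.40 CPM in SCA1 mice (SD, n = 4 each), with overlapping ranges. Atxn7, a SAGA subunit gene, was at 44.2 ± 1.77 and 46.0 ± 2.25 CPM, and 1 of 4 SCA1 mice exceeded every WT mouse. Tbp, the gene of the TATA-box binding protein, was at 47.9 ± 0.82 and 49.1 ± 1.73 CPM. The 3 log2 fold changes were 0.06, 0.06 and 0.04, and the upper ends of their 95% intervals were 0.201, 0.187 and 0.156.

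Atxn10 was at 183, 180, 162 and 167 CPM in WT and at 189, 187, 192 and 177 CPM in SCA1 mice. Of the 4 SCA1 mice 3 lay above every WT mouse, and the log2 fold change of 0.11 ± 0.054 had an interval of -0.005 to 0.216 (SE, edgeR adjusted p = 0.628). Fgf14 was at 64.5, 70.2, 64.3 and 66.9 CPM in WT and at 55.2, 58.2 and 53.7 CPM in 3 of the SCA1 mice. These 3 lay below every WT mouse while the other SCA1 mouse lay just under the highest WT mouse, and the log2 fold change of -0.17 ± 0.09 did not pass the test (SE, edgeR adjusted p = 0.668). Ttbk2, at 131 ± 6.70 and 128 ± 11.0 CPM, and Afg3l2, at 89.1 ± 3.05 and 87.3 ± 3.19 CPM (SD, n = 4), had log2 fold changes of -0.03 each.

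The second comparison asked whether the 9 genes differed from WT in mice with both the expanded allele and the S776A change. Such mice differ from WT by both, so these contrasts do not isolate the loss of the phosphorylation site. In SCA1 S776A against WT mice 0 of 9 genes passed the test (0.0133% of all genes did) and 0 had an unadjusted p under 0.05 (3.93% of all genes). In S776A double against WT mice the counts were again 0 of 9 called (0.0267% of all genes), 0 of 9 at an unadjusted p under 0.05 (6.93%) and 0 of 9 without overlap (7.11%). With the 3 expanded-allele genotypes pooled, 0 of 9 were called (0.0978%) and 1, Ppp2r2b, had an unadjusted p under 0.05 (7.67%). The intervals of all 9 log2 fold changes lay between -0.319 and 0.231 for SCA1 S776A and between -0.308 and 0.246 for double mice.

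Direct comparisons between the expanded-allele genotypes gave the same counts. Against SCA1 mice, 0 of 9 genes were called in SCA1 S776A (0.00444% of all genes) and 0 had an unadjusted p under 0.05 (4.35%), with Ppp2r2b the largest difference. In S776A double against SCA1 mice 0 of 9 were called (0% of all genes) and 0 had an unadjusted p under 0.05 (3.64%), and in double against SCA1 S776A mice the counts were 0 (0%) and 0 (2.96%). The largest of these last differences was Ttbk2, at a log2 difference of 0.09 (95% interval -0.051 to 0.236), where 1 double mouse at 151 CPM stood above the other 3 at 128 to 130 CPM. The interaction between the S776A change and the expanded allele was called for 0 of 9 genes (0% of all genes) with 0 at an unadjusted p under 0.05 (2.88%). This contrast was the difference of double from SCA1 S776A mice, minus the difference of WT S776A homozygous from WT mice. The former replaces S776 on the only unexpanded allele and the latter on both, so the doses differ. Its interval for Atxn2 was wide and reached past the fold minimum, at 0.23 (95% interval -0.079 to 0.538).

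**Figure D3:**
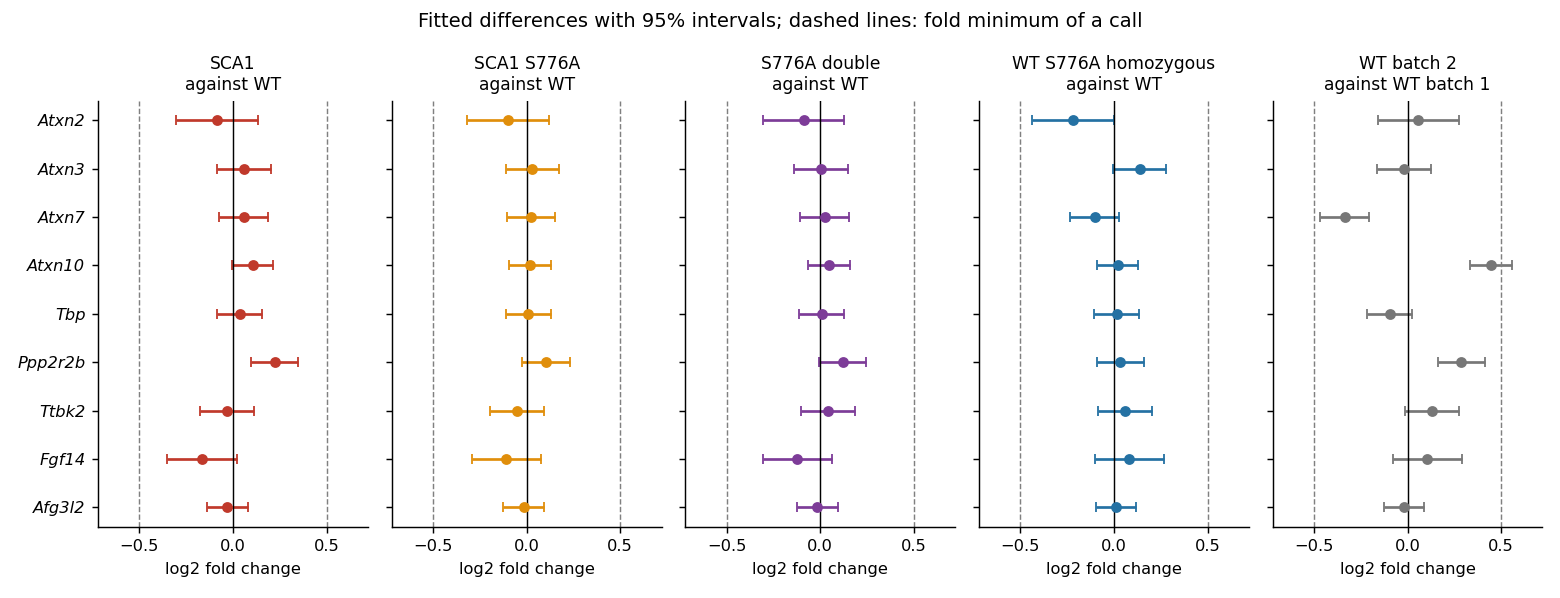
Fitted log2 fold change of each gene with its 95% interval, for 4 mutant genotypes against WT of the same batch and for WT of batch 2 against WT of batch 1. Dashed lines mark the fold minimum of 0.5. Every genotype interval stays inside them, and the intervals of Atxn7, Atxn10 and Ppp2r2b exclude 0 between batches.

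In WT S776A homozygous mice, which lack the expanded allele, 0 of 9 genes were called against WT of batch 2 (0% of all genes) and 0 had an unadjusted p under 0.05 (9.98% of all genes). Atxn2 was at 84.8, 96.0, 92.6 and 99.9 CPM in WT and at 93.2, 93.3, 78.6 and 55.8 CPM in the homozygous mice. The difference rested on 1 mouse, since the log2 fold change of -0.22 ± 0.106 (SE, 95% interval -0.436 to 0.001, edgeR adjusted p = 0.498) became -0.08 without replicate 4. That library also had the highest mitochondrial share of all 24, at 6.73% of fragments on genes against 3.01% to 4.82% in the others, and the part of this in the Atxn2 value was not tested.

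Atxn3, the ubiquitin protease gene, was at 23.7, 24.1, 25.2 and 24.9 CPM in WT of batch 2 and at 24.7, 23.3, 28.8 and 30.9 CPM in the homozygous mice, where replicate 4 was again the extreme. The log2 fold change was 0.14 ± 0.069 (SE, edgeR adjusted p = 0.501), the ranges overlapped, and without replicate 4 it was 0.06. Atxn7 was at 34.2, 34.7, 35.5 and 36.0 CPM in WT and at 33.1, 32.2, 33.3 and 32.1 CPM in homozygous mice, so the 2 groups did not overlap. It was the 1 of 9 genes of which that held, against 2.65% of all genes, and its log2 fold change was -0.10 ± 0.063 (SE, edgeR adjusted p = 0.546). The other 6 genes had log2 fold changes from 0.01 to 0.08.

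The 3 largest log2 fold changes of the 9 genes were those between WT mice of the 2 batches, with the highest between a mutant genotype and WT at 0.22. Atxn10 was at 183, 180, 162 and 167 CPM in batch 1 and at 244, 235, 233 and 231 CPM in batch 2, and Ppp2r2b was at 41.5 to 44.5 and 50.6 to 53.4 CPM. Atxn7 was lower in batch 2, at 34.2 to 36.0 against 43.0 to 46.8 CPM. None of these 3 overlapped between batches, and their log2 fold changes were 0.45 (edgeR adjusted p = 4.78e-07), 0.29 (0.000535) and -0.33 (0.00014). Ttbk2, at 122 to 137 and 140 to 150 CPM, did not overlap either (log2 fold change 0.13, adjusted p = 0.137), which made 4 of 9 genes against 46.7% of all genes tested. All 4 stayed under the fold minimum, so 0 of 9 genes were called against 17.6% of all genes. At an adjusted p under 0.01 alone, 3 of 9 genes and 32.2% of all genes differed, and at an unadjusted p under 0.05, 3 of 9 and 51.9%. The shift of Ppp2r2b between batches (0.29) was larger than its difference between SCA1 and WT mice (0.22), and this contrast of 2 values was not tested.

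In the fit the 9 genes varied less than the median gene among mice of 1 genotype and batch. The biological coefficient of variation in the fit ran from 6.06% for Afg3l2 and 6.21% for Atxn10 to 9.39% for Fgf14 and 10.8% for Atxn2, against a median of 12.5% over all genes. That median was over genes of any level and was not matched to the levels of the 9. In the CPM of single groups the coefficient of variation reached 22.1%, for Atxn2 in WT S776A homozygous mice. Afg3l2 was the steadiest of the 9 in the fit, between 81.0 and 94.1 CPM in every mouse, and its log2 fold changes in the 4 genotypes lay between -0.03 and 0.01. As a description, levels of Atxn10 and Ppp2r2b went together over the 16 mice of batch 1 (Pearson r = 0.82) but not over the 8 of batch 2 (r = -0.07). Atxn3 and Tbp had r = 0.63 and 0.77. These points share library depth and cell composition. The mice of each batch also pool genotypes, whose part in these r values was not tested.

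The genes whose levels followed each member most closely over the 16 mice of batch 1, out of 14883 genes with a mean of at least 1 CPM, were checked in batch 2. For Atxn2 they were Ankrd11, Gbf1 and Ogdh, with r of 0.94, 0.93 and 0.93 in batch 1 and 0.94, 0.97 and 0.97 in batch 2. Batch 2 included replicate 4 of the WT S776A homozygous mice, with Atxn2 at 55.8 CPM against 78.6 to 99.9 CPM in the others. The part of this library in the r values of batch 2 was not tested. For Ttbk2 they were Vcpip1, Pak2 and Edil3 (0.89, 0.88 and 0.87), of which Vcpip1 and Edil3 kept high values in batch 2 (0.89 and 0.91) and Pak2 did not (0.26). For Ppp2r2b they were Fxyd6, Rit2 and Hnrnpk (0.91, 0.89 and 0.89), and r was 0.27, 0.77 and 0.85 in batch 2.

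For the others the batches disagreed more often. Atxn3 was closest to Ice2 (0.77, then 0.90), Prox1 (0.74, then -0.08) and Nthl1 (0.74, then 0.02). Tbp was closest to Ddx46, Far1os and Scyl2, with r of 0.53, 0.83 and 0.65 in batch 2. Atxn10 was closest to Map2k5, Fbxo9 and Cabyr (0.48, 0.33 and 0.71 in batch 2), and Afg3l2 to Tnpo3, Lrp12 and Rab3gap1 (0.04, 0.82 and 0.45). Atxn7 was closest to Hdx, Otud4 and Cox17 (-0.44, 0.01 and 0.19), and Fgf14 to Nemp1, Epb41l4b and Cntn2, which had negative r in batch 2 (-0.46, -0.82 and -0.61).

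Of 31 further genes linked to human SCAs or related ataxias, 30 were tested and 0 were called in any genotype comparison. In SCA1 mice 5 of the 30 were lower and 0 higher at an unadjusted p under 0.05, where 4.32% of all genes were lower and 3.93% higher, and the median log2 fold change was -0.08 against 0.0016 over all genes. Among them, named after their values were seen, were the calcium release channel gene Itpr1 at -0.48, Nptx1 at -0.35 and Plekhg4 at -0.32, with edgeR adjusted p of 0.325, 0.369 and 0.452. Itpr1 is also one of the 7 Purkinje markers, of which 5 were lower and 0 higher at an unadjusted p under 0.05 with a median of -0.28. Of the 9 genes, 5 had values above 0 in SCA1 mice, and the lowest was that of Fgf14 at -0.17. In homozygous mice the median of the 30 genes was -0.12 and 0 had an unadjusted p under 0.05, against 9.98% of all genes.

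Genes that work with the 9 or are related to them were counted in the same way. In any genotype comparison, 0 were called in any of the 9 partner lists. Around Fgf14, 10 FGF homologous factor, sodium channel and related genes were counted. In SCA1 mice 3 of the 10 were lower at an unadjusted p under 0.05 (4.32% of all genes) and 0 were higher. Their median log2 fold change was -0.12 against 0.0016 over all genes. The lowest p was that of Fgf11, at -0.32 ± 0.085 (SE, edgeR adjusted p = 0.107). In double mice 1 of the 10 was higher and 1 lower (6.93% of all genes in either direction), with Fgf13 at 0.25 ± 0.058 (SE, edgeR adjusted p = 0.171) and Fgf11 at -0.21. Around Ppp2r2b, 1 of 12 PP2A subunit genes was higher in SCA1 mice at an unadjusted p under 0.05, the catalytic subunit gene Ppp2cb at 0.16 ± 0.061 (SE, edgeR adjusted p = 0.427), and 2 were higher in double mice, with Ppp2cb at 0.19. Of all genes, 3.93% were higher in SCA1 and 3.54% in double mice at that threshold. Around Ttbk2, 1 of 9 ciliogenesis and related genes was higher in SCA1 mice, Mapre1 at 0.12 ± 0.058 (SE, unadjusted p = 0.0465, edgeR adjusted p = 0.595). The counts of 1 in 12 and 1 in 9 in SCA1 mice stand against 8.25% of all genes in either direction. Whether any count in these lists differs from the share of all genes was not tested.

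The remaining partner lists held no gene at an unadjusted p under 0.05 in SCA1 mice, against 8.25% of all genes. These were 5 ATXN2 partners, 8 tested ATXN3 partners and related genes, 18 SAGA and related genes and 18 TFIID and related genes. The others were 14 genes of mitochondrial quality control and 4 ATXN10 partners. The medians of all these lists lay between -0.05 and 0.08. In homozygous mice 4 of the 18 TFIID and related genes were higher and 0 lower at an unadjusted p under 0.05 (6.57% of all genes were higher), led by Taf7 at 0.33 ± 0.107 (SE, edgeR adjusted p = 0.485), while Tbp itself was at 0.02.

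Between the batches, where 17.6% of all genes were called, partner genes were among them. Of the 18 SAGA and related genes, 5 were called. These were Supt20, Atxn7l2 and Trrap (lower in batch 2, log2 fold changes -0.54, -1.13 and -0.64) and Atxn7l3b and Supt3 (higher, 0.61 and 0.56). For PP2A, 10 of 12 subunits were higher in batch 2 at an unadjusted p under 0.05 (24.5% of all genes were higher) and 0 lower, and Ppp2ca, 1 of 12, was called at 0.54. Atxn2l (-0.98), Cep164 (-0.87), Mphosph9 (-0.60), Cep290 (-0.64) and Ogt (-0.89) were called as lower, as were the further ataxia genes Itpr1 (-0.73), Cacna1a (-0.64), Plekhg4 (-1.54) and Ccdc88c (-0.75). Markers of several cell types moved with the batch. Of the oligodendrocyte markers 5 of 5 were higher at an unadjusted p under 0.05 and 4 called, with a median of 0.57. Of the granule cell markers 5 of 7 were higher (summed level 5402 to 5721 CPM in batch 1 and 6365 to 6610 CPM in batch 2), as were 3 of 4 endothelial, 4 of 5 microglial and 2 of 6 Bergmann glia and astrocyte markers, with 0 lower in each. Of the Purkinje cell markers 4 were higher and 1 lower, and the sum ran from 6864 to 7906 CPM in batch 1 and from 5790 to 6893 CPM in batch 2. The part of these markers in the batch values was not tested.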

How the data were processed

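The authors trimmed reads with Trimmomatic 0.36 and aligned them with STAR 2.7.2d to GRCm38.p6, and deposited 1 table per mouse with 3 columns of raw counts per gene, without strand and for each strand. The annotation version is not given in the sources used here. The unstranded counts were used, so antisense overlaps are not separated. Gene symbols, positions and lengths came from GENCODE M21 (54165 of 54232 identifiers matched), and 1 further feature of each table is not reported here. Batches came from k-means (k = 2, 50 starts, mean silhouette 0.634) on 4 shares of fragments not assigned to a gene.

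Counts were fitted with edgeR 4.0.16 in R 4.3.3 (filterByExpr, TMM, robust quasi-likelihood, genotype and batch terms, all 24 mice). Thresholds were those of the study (adjusted p under 0.01, absolute log2 fold change over 0.5). CPM values used TMM library sizes, and log2 CPM a prior count of 2. RPKM divided CPM by the exon union length. DESeq2 1.42.0, ComBat-seq (sva 3.50.0), other filters and leaving out each mouse were alternatives. Mice of a group differed beyond sampling noise (chi-square per degree of freedom 7.87 to 198), and each mouse was taken as an independent sample. The members and gene lists were chosen with earlier results of these data known. Named were all 9 members, the 3 genes most like each, and from each list the genes called and the gene with the lowest p, except items that are not reported here. On counts simulated for SCA1 against WT (22056 genes), 99% of genes changed by 1 on the log2 scale and 22% of those changed by 0.5 reached the adjusted p threshold, and 1 of 21856 unchanged genes was called. The simulation gave every gene the same fixed spread between mice. It did not use the spread fitted to the 9 members, so these shares need not hold for them.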

Additional observations from a re-analysis of the deposited data

Results flagged for a closer look

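Of 54 sets of 4 mice (9 genes in 6 groups), 2 held a mouse far from the other 3 by Dixon's gap test (gap over range above 0.829), and chance gives about 1 in 20 such sets, or 2.7 of 54. Atxn3 in WT replicate 1 of batch 1 was at a log2 CPM of 4.53 against 4.65 to 4.68 in the other 3 mice (gap over range 0.834). Ttbk2 in S776A double replicate 1 was at 7.24 against 7.00 to 7.02 (gap over range 0.917), and without this mouse the log2 fold change of Ttbk2 in double mice went from 0.04 to -0.03.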

How the results depend on the processing

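The count of members called stayed at 0 in all 9 genotype comparisons under every alternative, and between batches it was 3 at an adjusted p under 0.05 with no fold minimum. Over all genes, the calls with ComBat-seq and DESeq2 were 117 (39 in the fit reported) in SCA1, 32 (3) in SCA1 S776A, 50 (6) in double, 99 (0) in homozygous and 84 (22) in pooled mice, and between batches they ran from 2231 to 4278 (3965) over the alternatives. No paired analysis was possible because the numbers in the titles are different in every genotype and the replicate numbers used here follow accession order. Without the batch term the log2 fold change of Atxn10 became -0.134 (SCA1), -0.222 (SCA1 S776A), -0.194 (double) and -0.183 (pooled), that of Ppp2r2b -0.047 (SCA1 S776A), -0.031 (double) and -0.002 (pooled), that of Ttbk2 -0.027 (double) and that of Tbp -0.033 (homozygous), because WT mice of both batches were then the controls. Afg3l2 in homozygous mice became -0.002 with mice of 1 batch only and -0.002 after ComBat-seq and DESeq2. Leaving out each mouse in turn turned the sign of small values, which ran in SCA1 from -0.088 to 0.013 (Ttbk2). In SCA1 S776A they ran from -0.002 to 0.046 (Atxn3), -0.012 to 0.045 (Atxn10), -0.019 to 0.04 (Tbp) and -0.032 to 0.008 (Afg3l2). In double mice they ran from -0.03 to 0.019 (Atxn3), -0.057 to 0.075 (Atxn7), -0.029 to 0.055 (Tbp), -0.026 to 0.06 (Ttbk2) and -0.036 to 0.007 (Afg3l2). In homozygous mice they ran from -0.029 to 0.036 (Atxn10), -0.022 to 0.045 (Tbp), -0.002 to 0.048 (Ppp2r2b) and -0.029 to 0.047 (Afg3l2), and over the pooled mice from -0.003 to 0.046 (Atxn3), -0.049 to 0.004 (Ttbk2) and -0.04 to 0.003 (Afg3l2). The exact test of Ppp2r2b ran from 0.199 to 0.265 in SCA1 without 1 mouse, where 3 against 4 mice cannot pass, and from 0.133 to 0.167 over the pooled mice, with p = 0.0791, 0.0703 and 0.0659 (exact permutation) without WT replicates 2, 3 and 4. In the order of levels 5 members moved with the longest transcript 4 in WT mice of batch 2 and 3 with the sum of the strand columns, and 3 of the 27 most alike genes were the same with all 24 mice after removal of the batch effect. The other log2 fold changes against WT kept their direction and side of the threshold (349 values, and 1051 with a mouse left out). In the direct and interaction comparisons the sign turned in 78 of 1143 values, none of them that of Ppp2r2b against SCA1 (-0.155 to -0.0738 in SCA1 S776A and -0.14 to -0.0502 in double mice). Each member had 1552 or more fragments in every library, and the part of counting error in the spread between mice was not tested.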
